A study of Mus musculus with 2 samples.

Results

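The calcium/calmodulin-dependent protein kinase I (CaM kinase I) cascade and Camk4 were examined in single-nucleus RNA of the mouse hippocampus. The set is 6 genes of the 33696 in the deposited tables, found by their symbols: the kinase kinases Camkk1 and Camkk2, the CaM kinase I genes Camk1, Camk1d and Camk1g, and Camk4. The members were chosen by family and pathway, with the Camk1g ratio between these same 2 libraries already known, so that ratio is given as a description and nothing is tested with it. The study had 2 libraries at postnatal day 19, one per genotype. In the Control library both Cic alleles were floxed (Cicflox/flox). The library labelled knockout, called the labelled knockout below, was from littermates with the same floxed alleles and Emx1-Cre (Emx1-Cre; Cicflox/flox). For each, tissue of 3 mice was pooled (1 hippocampus per mouse, from 2 males and 1 female), so each group is 1 library. Part of the nuclei could be assigned to the female or to the males by sex-linked genes, but the 2 males cannot be separated. No test, p-value or standard error can therefore be given for any difference. Intervals are 95% intervals that cover counting error only, not the spread between mice or preparations.

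Cic encodes Capicua, an HMG-box repressor of transcription that is relieved by receptor tyrosine kinase signalling, and Emx1-Cre recombines floxed alleles in progenitors of the dorsal telencephalon. That lineage gives rise to the excitatory neurons of the hippocampus and much of its glia, while its inhibitory interneurons and microglia arise elsewhere. In the kinase cascade, calcium-bound calmodulin binds the kinase kinases and their substrates, and CAMKK1 or CAMKK2 then phosphorylates the activation loop of CaM kinase I or CaM kinase IV. CaM kinase IV, the product of Camk4, acts mainly in the nucleus on CREB and its co-activators. The CaM kinase I enzymes act mainly in the cytoplasm and at membranes, where they are known for roles in the growth of axons and dendrites. The product of Camk1g is anchored to membranes by lipid groups, and CAMKK2 also phosphorylates AMP-activated kinase.

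The promoter of Camk1g is shown because Camk1g carries the main difference below, and that of Camk1 because it alone among those searched holds a Capicua octamer. Both are the 250 bases before the start site, 5′ to 3′ on the gene's strand, from RefSeq on GRCm38.p6, chr1:193370283-193370532 (minus strand) for Camk1g and chr6:113343923-113344172 (minus strand) for Camk1, and capitals mark the octamer.
Camk1g: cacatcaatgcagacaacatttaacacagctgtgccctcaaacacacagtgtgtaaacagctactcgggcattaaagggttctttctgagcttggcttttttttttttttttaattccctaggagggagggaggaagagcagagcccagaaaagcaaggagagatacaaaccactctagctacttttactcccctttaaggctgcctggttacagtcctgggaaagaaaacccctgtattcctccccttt
Camk1: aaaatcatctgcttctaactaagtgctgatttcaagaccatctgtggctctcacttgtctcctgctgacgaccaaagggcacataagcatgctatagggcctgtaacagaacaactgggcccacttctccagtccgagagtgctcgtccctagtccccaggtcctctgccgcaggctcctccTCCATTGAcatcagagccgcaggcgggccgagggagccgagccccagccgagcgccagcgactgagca

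Promoter windows of 300 bases, 250 before to 50 after the start, were searched on both strands for the octamers TGAATGAA, TGAATGGA, TCAATGAA and TCAATGGA, the sites known to be bound by Capicua. Of all 32851 RefSeq promoter windows, 3.84% held at least 1 of them. Windows were searched for 5 of the 6 genes, with Camk4 left out. The Camk1 window held TCAATGGA on its minus strand, with its first base 68 bases before the start (position -68). No window of Camk1g, Camk1d (which had 2 start sites), Camkk1 or Camkk2 held one. The cyclic AMP response element TGACGTCA, the site of CREB, was in 1.79% of all windows and in none of these. Its shorter core TGACG, in 20.8% of all windows, was found once in the Camk1 window, apart from the octamer, and once in that of Camkk1. The Camk1g window was 44.7% G or C, against a median of 52.7% over all windows. A match is a string of letters in this window and not a measured site.

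Unique molecular identifiers (UMIs, counted RNA molecules) numbered 314453640 over 25907 Control barcodes and 252995761 over 23207 barcodes of the labelled knockout. With filtered barcodes and called doublets removed, 21837 and 20529 nuclei were used, with medians of 9783 and 8765 UMIs. The libraries shared 175 barcodes, 129 of them among the nuclei used. Nuclei were clustered together and named after marker genes as "X-like" classes, and 15 classes had at least 100 nuclei in each library. Levels are in CPM, the UMIs of a gene per 1000000 UMIs of its class, and a log2 ratio is the labelled knockout over Control on that scale. Paired values are given in the order Control, then labelled knockout. Each of the 15 classes had its own markers detected in both libraries, except that 1 of the radial glia markers was at 0. Cic itself had 513 UMIs in dentate granule-like nuclei of either library, at 9.13 CPM in Control and 12.6 in the labelled knockout (log2 ratio 0.46). In CA1-like nuclei its log2 ratio was 0.93, in CA3-like nuclei 0.74 and in inhibitory-like nuclei -0.04. The sum over the whole gene does not fall, and it cannot show whether the floxed part is present, so the library is called by its label.

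Camk1g was the member that differed most. In dentate granule-like nuclei, the neurons whose axons are the mossy fibers, 79 Camk1g UMIs were counted in 4587 Control nuclei and 1508 in 3662 nuclei of the labelled knockout. The level was 1.41 CPM (1.11 to 1.75) in Control and 37.0 (35.2 to 39.0) in the labelled knockout. The labelled knockout was far higher and the counting intervals did not meet, for a log2 ratio of 4.71 (4.39 to 5.06). In the single female mouse of each pool the log2 ratio was 4.77, and in the 2 males it was 4.90. Camk1g ranked 6 by its ratio among the 8428 genes that reached 50 UMIs and 10 CPM in either library. Its rank was 10 of 8189 genes in CA3-like, 35 of 6048 in CA2-like, 109 of 8156 in CA1-like and 2409 of 8787 in inhibitory-like nuclei.

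The Control level of Camk1g in granule-like nuclei was no higher than in microglia-like nuclei, which arise outside the Emx1 lineage and were taken as the measure of free RNA. Microglia-like nuclei held 2.34 CPM (1.01 to 4.60) in Control and 6.79 (4.02 to 10.7) in the labelled knockout. The share of nuclei with a Camk1g UMI was 1.66% of Control granule-like nuclei and 31.4% (29.9% to 32.9%) of those labelled knockout. In microglia-like nuclei, which were shallower, that share was 0.529% and 1.15%. Granule-like nuclei had median depths of 11736 and 10667 UMIs, and microglia-like nuclei 2152 and 1718. With every nucleus thinned to 2000 UMIs, granule-like nuclei showed shares of 0.262% and 6.59%, and microglia-like nuclei 0.472% and 1.36%. Thinning left out 1 and 7 granule-like nuclei, and 663 and 959 microglia-like nuclei, as too shallow. The thinned shares of the 2 classes were not apart in Control (0.135% to 0.457% and 0.129% to 1.20%), and in the labelled knockout the granule-like share was the higher one (5.81% to 7.45% and 0.549% to 2.79%). The part of free RNA in the Control level was not tested.

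The dentate granule-like class was made of 2 clusters that the libraries filled unequally. The cluster led by Bmp6, Gm42864 and Spink13 held 1197 Control nuclei and 3530 of the labelled knockout. The cluster led by Glis3, Dsp and Trpc6 held 3390 and 132. Within the first, Camk1g was at 4.06 CPM in Control and 37.5 in the labelled knockout, a log2 ratio of 3.19 (2.82 to 3.63). Within the second, it was at 0.583 and 26.4, from 25 and 42 UMIs (log2 ratio 5.49, 4.75 to 6.28). The Control levels of the clusters were apart, with intervals of 3.05 to 5.29 in the first and 0.377 to 0.861 in the second. When the members and all genes past the size rule were left out of the clustering, 1 cluster took the place of the pair. It had 4314 and 3358 nuclei, fewer than the 4587 and 3662 of the pair, and the log2 ratio in it was 5.08. The immature granule cluster led by Rasef held 389 and 270 nuclei in the main clustering and 898 and 784 in this one. The nuclei compared were thus not the same.

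In CA3-like nuclei, the targets of the mossy fibers, Camk1g had 137 UMIs in Control and 702 in the labelled knockout, or 4.63 (3.88 to 5.47) and 28.8 (26.7 to 31.0) CPM. The log2 ratio was 2.63 (2.37 to 2.91), with 2.67 in female and 2.58 in male nuclei. In CA1-like nuclei, 431 and 880 UMIs gave 13.2 (11.97 to 14.5) and 39.7 (37.1 to 42.4) CPM, a log2 ratio of 1.59 (1.42 to 1.76), with 1.60 in female and 1.62 in male nuclei. CA2-like nuclei, a small class, had 31 and 72 UMIs, at 8.79 and 29.6 CPM (log2 ratio 1.74). In each of these 3 pyramidal classes the labelled knockout was the higher one, with no overlap of the intervals. Markers also differed within CA1-like nuclei, where the 8 CA1 markers summed to 922 and 789 CPM (5 of 8 higher) and the 8 subicular or cortical ones to 472 and 306 (5 of 8 higher). The 8 immature granule markers summed to 54.9 and 116 CPM in this class and the 8 CA3 markers to 160 and 249, each with 6 of 8 higher. No marker of these sets was at 0, and their part in the values of this class was not tested. At a clustering resolution of 2, 4 clusters were named CA1, and together they held more nuclei than the CA1-like class (1726 and 1356). The libraries filled 2 of them unequally, and these 2 alone held about as many nuclei as that class. Camk1g was at 11.8 and 39.5 CPM in the cluster led by Emp1 (431 Control nuclei and 1303 of the labelled knockout, log2 ratio 1.73) and at 13.7 and 42.3 in that led by 4921539H07Rik (1302 and 54 nuclei, 1.65). In the clusters led by Gm29771 (349 and 314 nuclei) and Gm12130 (275 and 304), filled more evenly, its log2 ratio was 2.75 and 2.22. Both share leading genes with the unnamed cluster led by Dcn at resolution 1 (978 and 1058 nuclei), so they may hold many of the same nuclei. Which of their nuclei lay outside the CA1-like class was not traced. Shares of nuclei with a UMI went from 9.70% to 42.8% in CA3-like nuclei and from 19.99% to 45.1% in CA1-like nuclei.

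The Control levels of Camk1g differed among 4 classes, mature dentate granule-like nuclei and those of the CA fields, far more than those of the labelled knockout. From the lowest (dentate granule-like, 1.41) to the highest (CA1-like, 13.2), the Control levels spanned 9.38-fold. In the labelled knockout, the same classes ran from 28.8 in CA3-like to 39.7 in CA1-like nuclei, a span of 1.38-fold. The neighbours in the Control order, CA1-like over CA2-like nuclei, did not differ beyond their intervals (8.79, 5.97 to 12.5, for CA2-like), while CA3-like nuclei lay below both. Each span is of single libraries and was not tested, and the low Control end was no higher than in microglia-like nuclei. Immature dentate granule-like nuclei, not among the 4, were at 11.9 and 20.2 CPM, and subicular or cortical excitatory-like nuclei at 2.39 and 9.16. The 4-class span was also narrower in the labelled knockout for Camk1 (9.82 and 3.10-fold), Camk1d (4.42 and 3.18) and Camk4 (7.38 and 4.22). It was wider for Camkk1 (3.53 and 5.54) and Camkk2 (2.28 and 2.51).

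**Figure D1:**
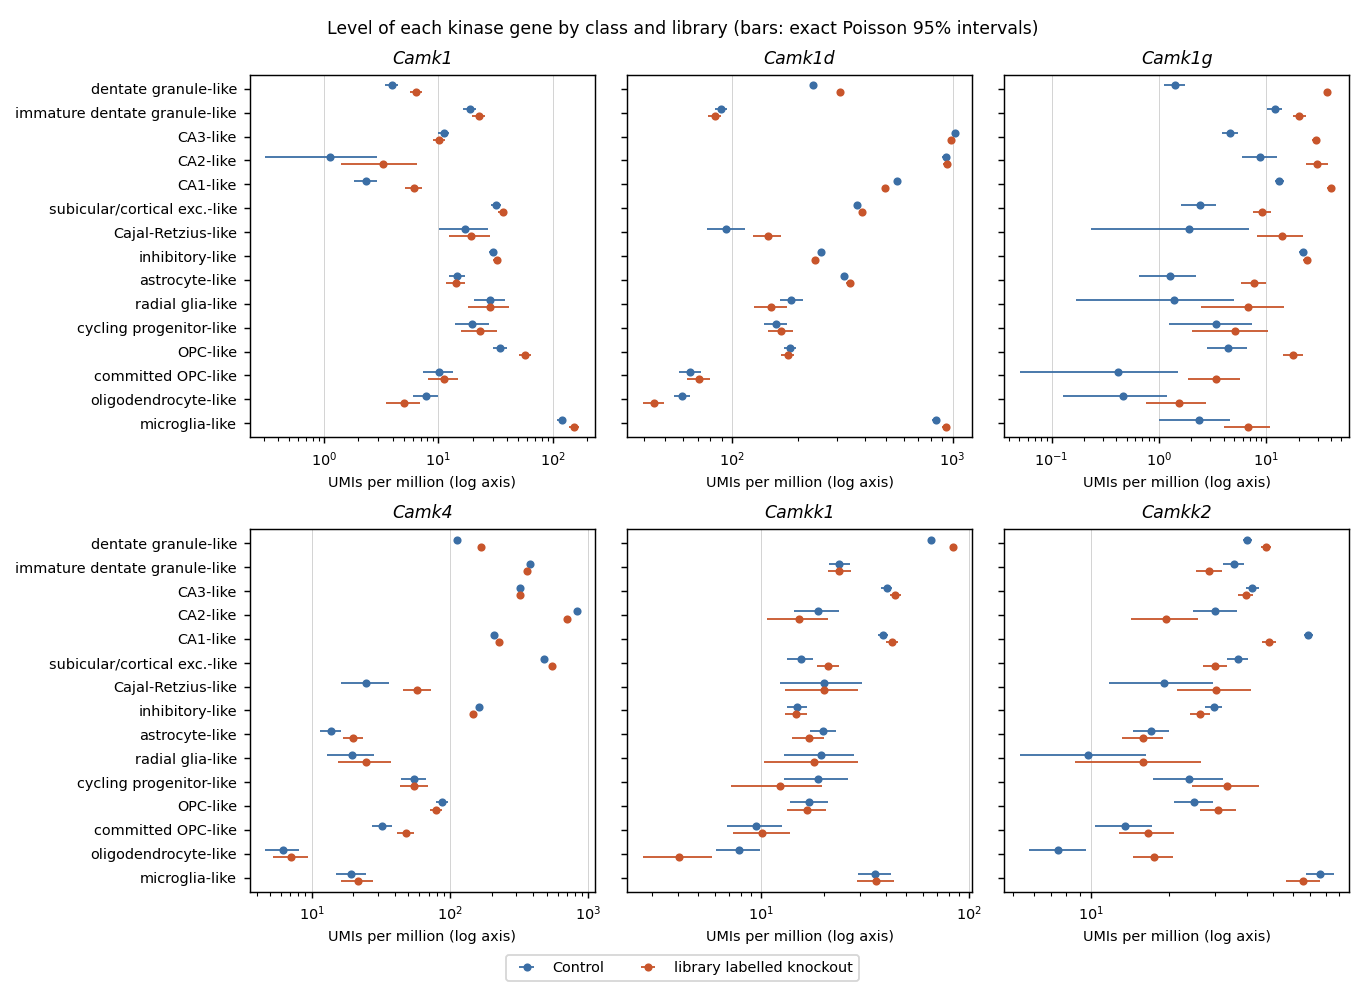
Level of each gene in CPM (log axis) in 15 classes, with 1 point per library (blue Control, orange the labelled knockout) and exact Poisson 95% intervals as bars. Camk1g lies between 28.8 and 39.7 in the dentate granule-like, CA1-like, CA2-like and CA3-like nuclei of the labelled knockout and between 1.41 and 13.2 in those of Control, while the points of Camk1d, Camk4, Camkk1 and Camkk2 lie close together in most classes.

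Inhibitory-like nuclei were the class with the highest Control level of Camk1g and showed little difference between the libraries. They had 479 and 454 UMIs, at 21.9 (19.97 to 23.9) and 23.9 (21.7 to 26.2) CPM, and a log2 ratio of 0.13 whose interval (-0.06 to 0.31) holds 0. The cluster led by Gna14 was at 24.7 and 24.8 CPM and the cluster led by Igf1 and Adarb2 at 28.9 and 34.7. The cluster led by Gad2, Hapln1, Mctp2 and Lamp5 was at 1.10 and 2.13, from 4 and 7 UMIs. Camk1g was thus found in some inhibitory clusters of both libraries and was near 0 in another.

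Immature dentate granule-like nuclei had a Control level of 11.9 CPM (10.1 to 14.0), above that of mature granule-like nuclei. In the labelled knockout they were at 20.2 (17.6 to 23.2), now below the mature class. The log2 ratio of mature over immature nuclei was -3.08 (-3.50 to -2.68) in Control and 0.87 (0.66 to 1.09) in the labelled knockout, so the order of the classes turned. Between the libraries, the immature class differed by a log2 ratio of 0.76, with 0.52 in female and 1.06 in male nuclei, and ranked 49 of 9531 genes. Markers of other stages also differed within the mature class: the summed level of 8 immature granule markers was 139 CPM in Control and 211 in the labelled knockout, with 8 of 8 higher and none at 0. The 8 dentate granule markers summed to 4191 and 3041, with 7 of 8 lower. Of other cell types, the 8 Cajal-Retzius markers summed to 8.86 and 45.7 CPM in this class, with 5 of 8 higher. The 8 inhibitory markers summed to 1635 and 2185, with 4 of 8 higher, and none of either set was at 0. Other sums were lower: oligodendrocyte markers at 189 and 143 and microglia markers at 86.4 and 72.3, each with 8 of 8 lower. Mossy cell markers were at 34.7 and 24.3, with 5 of 8 lower. Their part in the Camk1g difference was not tested.

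Oligodendrocyte precursor-like nuclei had 23 and 91 Camk1g UMIs, at 4.37 (2.77 to 6.56) and 17.8 (14.4 to 21.9) CPM. Here too the labelled knockout was higher without overlap, and the log2 ratio of 2.01 (1.36 to 2.76) ranked 2 of 9383 genes. The female value of 1.33 rested on 6 and 17 UMIs and its interval (-0.01 to 3.03) holds 0, while the male value was 2.22 (1.32 to 3.36). In this class the 8 inhibitory markers summed to 2544 and 3031 CPM (7 of 8 higher, 1 at 0 in Control). The 8 CA3 markers summed to 565 and 571 (4 of 8 higher), and the part of other cells in the Camk1g value was not tested. In the other glia and the progenitors, levels of the labelled knockout overlapped that of its microglia-like nuclei or lay below it. Astrocyte-like nuclei had 1.26 and 7.68 CPM, committed oligodendrocyte precursor-like nuclei 0.419 and 3.39, and oligodendrocyte-like nuclei 0.465 and 1.53. Radial glia-like nuclei had 1.38 and 6.75, and cycling progenitor-like nuclei 3.41 and 5.06. The log2 ratio in astrocyte-like nuclei was 2.56. Their level in the labelled knockout (5.84 to 9.93) lay above that of its oligodendrocyte-like nuclei (0.762 to 2.73) and overlapped that of its microglia-like nuclei, and the part of free RNA in it was not tested. Among the remaining neurons, subicular or cortical excitatory-like nuclei had 2.39 and 9.16 CPM and Cajal-Retzius-like nuclei 1.91 and 13.9, from 2 and 18 UMIs.

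Outside the 15 classes, 6 clusters had more than 20 Control UMIs of Camk1g, a number chosen after their values were seen. Of the unnamed ones nearest to CA1 by their markers, the cluster led by Dcn was at 9.46 and 40.6 CPM, that led by C1qtnf7 and Cpa6 at 17.1 and 47.9, and that led by Gm6260 and including Fn1 among its leading genes at 24.0 and 40.4. Unnamed clusters led by Npsr1 and by Leng9 were at 23.2 and 42.9, and at 8.52 and 28.0. Mossy cell-like nuclei, too few for a class with 72 and 105 nuclei, were at 11.5 and 30.8. In each of the 6, the level of the labelled knockout was the higher one.

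Camk1g counts per nucleus were low in dentate granule-like, CA3-like, CA1-like and inhibitory-like nuclei. In granule-like nuclei the mean was 0.017 UMIs per nucleus in Control and 0.41 in the labelled knockout. At such low counts, most nuclei with any UMI have just 1. These counts therefore cannot tell more nuclei with Camk1g RNA from more of it per nucleus. Among granule-like nuclei, 73 Control nuclei had 1 Camk1g UMI and 3 had more, with a highest count of 2. In the labelled knockout, 866 had 1 and 283 (7.73%) had more, with a highest count of 5. The mean in nuclei with any Camk1g UMI was 1.04 in Control and 1.31 in the labelled knockout. Nuclei with more than 1 UMI numbered 12 and 165 in CA3-like, 68 and 200 in CA1-like, and 102 and 101 in inhibitory-like nuclei.

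**Figure D2:**
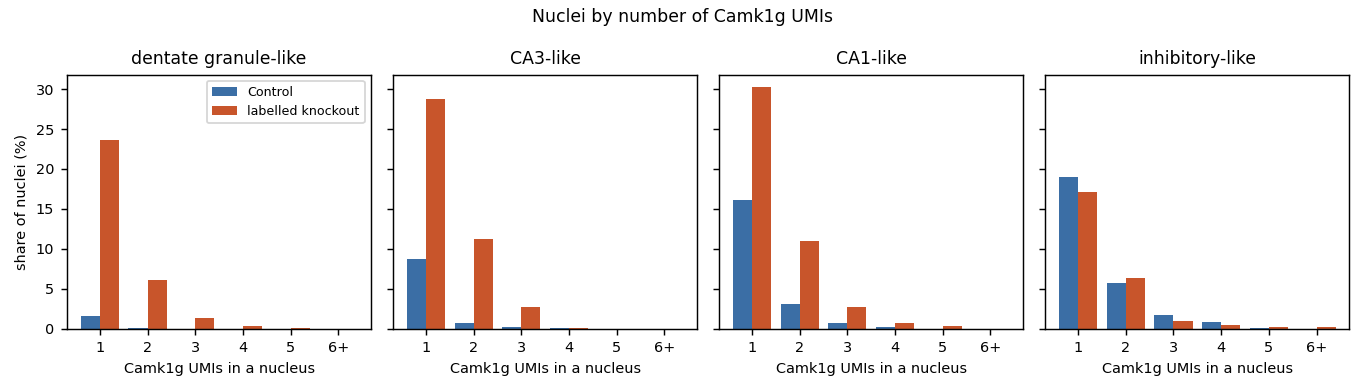
Share of nuclei (%) with 1, 2, 3, 4, 5 or 6 and more Camk1g UMIs in 4 classes, for Control (blue) and the labelled knockout (orange), nuclei with no UMI not drawn. Nuclei with more than 1 UMI are 0.0654% and 7.73% of dentate granule-like nuclei and 8.40% and 8.11% of inhibitory-like nuclei.

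The other CaM kinase I genes moved less. Camk1d, the CaM kinase I gene with a UMI in nearly all pyramidal nuclei, had 13100 and 12550 UMIs in dentate granule-like nuclei, at 233 and 308 CPM. The labelled knockout was higher, by a log2 ratio of 0.40 (0.37 to 0.44), with 0.57 in female and 0.27 in male nuclei. Within the cluster led by Bmp6 it was at 179 and 308 (log2 ratio 0.78) and within that led by Glis3 at 250.01 and 321 (0.36). In CA3-like nuclei, where its Control level was highest, Camk1d was at 1030 and 981 CPM (log2 ratio -0.07), and in CA1-like nuclei at 562 and 497 (-0.18). The small CA values have counting intervals that leave out 0, as do many at this depth, and were under 1.5-fold. Over the 15 classes, its log2 ratio ran from -0.43 in oligodendrocyte-like to 0.62 in Cajal-Retzius-like nuclei.

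The Control order of Camk1d by class was CA3-like, CA2-like (930.3), microglia-like (839), CA1-like, subicular or cortical excitatory-like (370), astrocyte-like (323), inhibitory-like (252) and dentate granule-like. No interval in that part of the order met the next. The lowest levels were in committed oligodendrocyte precursor-like (64.8) and oligodendrocyte-like nuclei (59.5), whose intervals overlap. Microglia-like nuclei therefore cannot serve as background for Camk1d.

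Camk1 was low in most neurons. Its highest level was in microglia-like nuclei, at 119 CPM in Control and 154 in the labelled knockout, from 408 and 409 UMIs. In dentate granule-like nuclei it had 220 and 260 UMIs, at 3.91 and 6.38 CPM, a log2 ratio of 0.71 (0.44 to 0.97). Within the granule clusters both intervals hold 0: the ratio was -0.22 (-0.56 to 0.13) in the cluster led by Bmp6 and 0.31 (-1.47 to 1.44) in that led by Glis3, where the labelled knockout had 5 UMIs. With the members and the genes past the size rule left out of the clustering, the single granule cluster, smaller than the class, gave 0.72. In CA1-like nuclei it had 76 and 136 UMIs, at 2.33 and 6.13 CPM, a log2 ratio of 1.40 (0.98 to 1.82). Of the unnamed clusters nearest to CA1, that led by Dcn was at 18.1 and 16.4 CPM (-0.14, -0.36 to 0.08). Those led by Gm6260 and C1qtnf7 gave 0.63 (0.08 to 1.19) and 0.32 (-0.17 to 0.84), and that led by Hspa8 had 4 UMIs in each library. At resolution 2, where the clusters named CA1 took in more nuclei than the CA1-like class, the value was 0.46. Of the 4 CA1 clusters at that resolution, Camk1 gave 0.60 (0.06 to 1.19) in that led by Emp1 and 1.91 (0.09 to 3.13, from 41 and 5 UMIs) in that led by 4921539H07Rik. The intervals of the other 2, which may share nuclei with the cluster led by Dcn, hold 0. Both class levels lie under 10 CPM. In oligodendrocyte precursor-like nuclei it had 182 and 292 UMIs, at 34.6 and 57.2 CPM (log2 ratio 0.72, 0.45 to 1.00), with 0.57 in female and 0.73 in male nuclei. Camk1 overlaps Ogg1, a DNA repair gene, on the opposite strand in GENCODE M21. Ogg1 had 212 and 171 UMIs in the granule-like class and 113 and 90 in the CA1-like class. How the counting treated strand is not given in the sources used here.

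Camk4 was highest in CA2-like nuclei, at 827 CPM in Control and 702 in the labelled knockout (log2 ratio -0.24). Subicular or cortical excitatory-like (474 and 549), immature dentate granule-like (381 and 358), CA3-like (323 and 318) and CA1-like nuclei (207 and 226) followed. No interval met that of the next class in the Control order from CA2-like down to cycling progenitor-like nuclei. Camk4 in dentate granule-like nuclei had 6290 and 6772 UMIs, at 112 and 166 CPM. The labelled knockout was higher, by a log2 ratio of 0.57 (0.52 to 0.62), with 0.50 in female and 0.65 in male nuclei. The share of nuclei with a UMI was 54.3% and 73.3%, and the mean in such nuclei was 2.52 in both libraries.

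Camk4 also showed how the granule clusters bear on a class value. Within the cluster led by Bmp6 its level was 162 CPM in Control and 166 in the labelled knockout, a log2 ratio of 0.04 (-0.03 to 0.11). Within the cluster led by Glis3 it was 96.5 and 164, a log2 ratio of 0.76 (0.58 to 0.94), the latter from 132 nuclei. With the members and the genes past the size rule left out of the clustering, the single granule cluster, smaller than the class, gave 0.65. Immature granule-like nuclei held more Camk4 than mature ones in both libraries, with a log2 ratio of mature over immature of -1.77 in Control and -1.11 in the labelled knockout. The immature markers given above moved the same way as Camk4 in this class, and their part in it was not tested. Camk1, lower in mature than in immature nuclei (-2.27 and -1.82), had the same pattern. Camk1d and Camkk1 were higher in mature nuclei in both libraries (Camk1d 1.38 and 1.88, Camkk1 1.47 and 1.82 on the log2 scale).

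In Cajal-Retzius-like nuclei Camk4 had 26 and 75 UMIs, at 24.8 and 57.9 CPM, a log2 ratio of 1.20 (0.56 to 1.93). The value was 1.30 in female nuclei, and 0.61 in male nuclei with an interval that holds 0 (-0.75 to 2.21). This class had 177 and 233 nuclei, and levels of other cell types differed in it too: 8 inhibitory markers summed to 428 and 762 CPM, with 6 of 8 higher and 1 at 0 in Control. The 8 CA3 markers summed to 323 and 505, with 8 of 8 higher and 1 at 0 in Control. The part of other cells in the Camk4 value was not tested. A gene on the opposite strand, 2310026I22Rik, overlaps Camk4 in the annotation and had 43 and 85 UMIs in dentate granule-like nuclei.

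**Figure D3:**
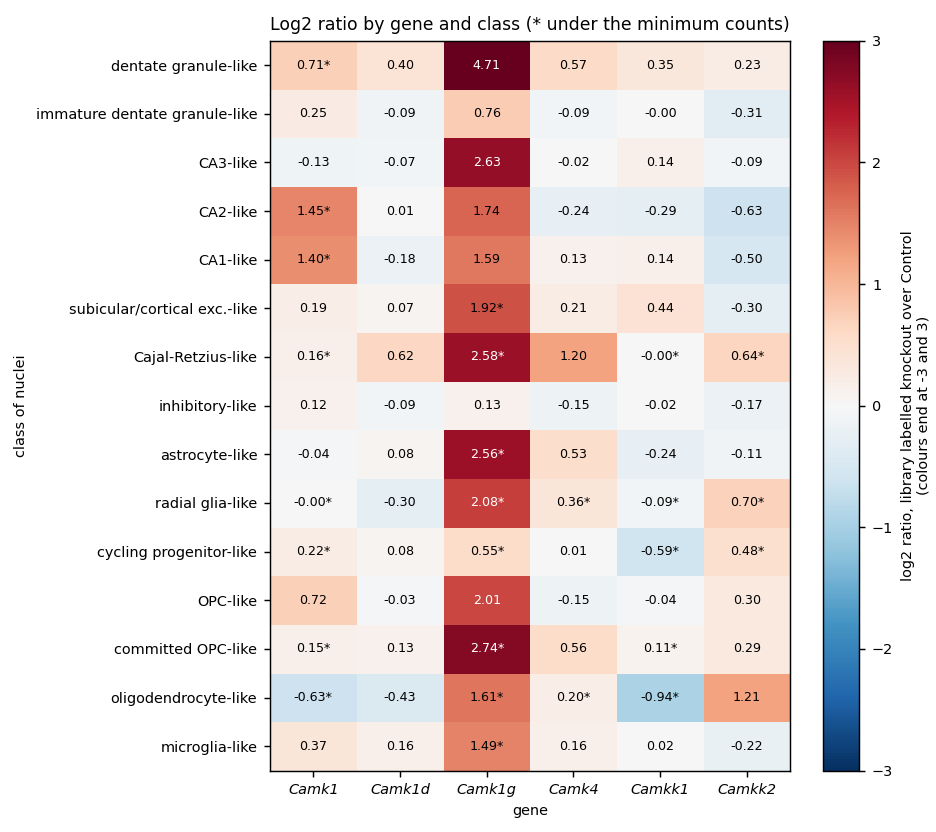
Log2 ratio of the labelled knockout over Control for 6 genes (columns) in 15 classes (rows), in red where higher and in blue where lower, with colours ending at -3 and 3 and an asterisk where the higher library is under 50 UMIs or 10 CPM. The Camk1g column runs from 0.13 in inhibitory-like to 4.71 in dentate granule-like nuclei, while the other columns lie between -0.94 and 1.45.

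Of the kinase kinases, Camkk1 had its highest level in dentate granule-like nuclei, with 3715 and 3434 UMIs at 66.1 and 84.3 CPM. The log2 ratio was 0.35 (0.28 to 0.42), with 0.49 in female and 0.23 in male nuclei, and 0.25 and 0.21 within the clusters led by Bmp6 and Glis3. In CA3-like nuclei it was at 40.2 and 44.4 CPM (0.14) and in CA1-like nuclei at 38.9 and 42.8 (0.14), and the intervals of these 2 classes overlapped in Control. Oligodendrocyte-like nuclei had 67 and 29 UMIs, at 7.80 and 4.03 CPM (-0.94). The value was 0.07 with called doublets kept, a setting in which the class held partly different nuclei.

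Camkk2 was lower by value in the labelled knockout in all 3 CA classes, with intervals that leave out 0 in CA1-like and CA2-like nuclei. In CA1-like nuclei it had 2244 and 1074 UMIs, at 68.7 and 48.4 CPM, a log2 ratio of -0.50 (-0.61 to -0.40), with -0.67 in female and -0.49 in male nuclei. The share of CA1-like nuclei with a UMI was 66.2% and 47.6%. In CA2-like nuclei it had 106 and 47 UMIs, at 30.1 and 19.3 CPM (-0.63, -1.17 to -0.13). The 4 unnamed clusters nearest to CA1 gave values of either sign, and each interval holds 0. The cluster led by Dcn gave 0.11 (-0.01 to 0.23) and that led by C1qtnf7 gave 0.09 (-0.10 to 0.29). The cluster led by Gm6260 gave -0.20 (-0.40 to 0.00038), and that led by Hspa8 and Vgf -1.05 (-2.53 to 0.03) from 43 and 7 UMIs. At resolution 2, where the clusters named CA1 took in more nuclei than the CA1-like class, the value was -0.32. The unequally filled clusters led by Emp1 and 4921539H07Rik gave -0.28 (-0.44 to -0.13) and -0.43 (-0.91 to -0.02). Those led by Gm12130 and Gm29771, which may share nuclei with the cluster led by Dcn, gave -0.17 (-0.46 to 0.12) and 0.25 (0.07 to 0.44). In CA3-like nuclei Camkk2 was at 41.8 and 39.4 CPM (-0.09, -0.21 to 0.04) and in dentate granule-like nuclei at 40.0 and 47.0 (0.23). The libraries filled the 2 clusters of the granule-like class unequally, and the part of that in its Camkk2 value was not tested. Camkk2 intervals also lay below 0 in subicular or cortical excitatory-like (36.8 and 29.95 CPM), immature dentate granule-like (35.3 and 28.4) and inhibitory-like nuclei (29.6 and 26.2). The marker sums given above for CA1-like nuclei differed between the libraries, those of CA1 and subicular markers being lower and those of immature granule and CA3 markers higher, and their part in the Camkk2 value was not tested.

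In oligodendrocyte-like nuclei Camkk2 was the one member with the minimum counts to differ by 2-fold, with 64 and 125 UMIs at 7.45 and 17.4 CPM. The labelled knockout was higher, by a log2 ratio of 1.21 (0.77 to 1.68), with 1.21 in female and 1.10 in male nuclei. At resolution 2 the class held 2 clusters filled unequally. In the cluster led by Opalin and Tnni1 (442 and 670 nuclei) Camkk2 was at 6.77 and 18.5 CPM, a log2 ratio of 1.43 (0.86 to 2.08), and in that led by 4930420G21Rik and Prr5l (626 and 165 nuclei) at 8.15 and 9.67, from 34 and 9 UMIs (0.30, -0.998 to 1.34). With called doublets kept the class value was 0.11. Camk1 and Camk1d also moved in that setting, from -0.63 to 0.32 and from -0.43 to -0.0045. The class then held partly different nuclei. It took in a cluster of 348 and 256 nuclei with medians of 24994 and 24600.5 UMIs, against 7772 and 8277 in the class with doublets removed. A cluster led by Tnni1 (285 and 344 nuclei) stayed unnamed in that setting. The 8 oligodendrocyte markers summed to 22417 and 22407 CPM, and the 8 CA3 markers to 96.5 and 194 (5 of 8 higher, none at 0). Sums of other neuronal markers went either way in this class. Inhibitory markers were at 65.97 and 86.5, Cajal-Retzius markers at 11.1 and 11.7, and dentate granule markers at 446 and 454. Subicular or cortical markers were at 327 in both libraries. Sums were lower for CA1 (1802 and 1560), immature granule (55.3 and 46.4), mossy cell (28.3 and 19.99) and CA2 markers (14.4 and 11.8). The part of neuronal RNA in the class was not tested.

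**Figure D4:**
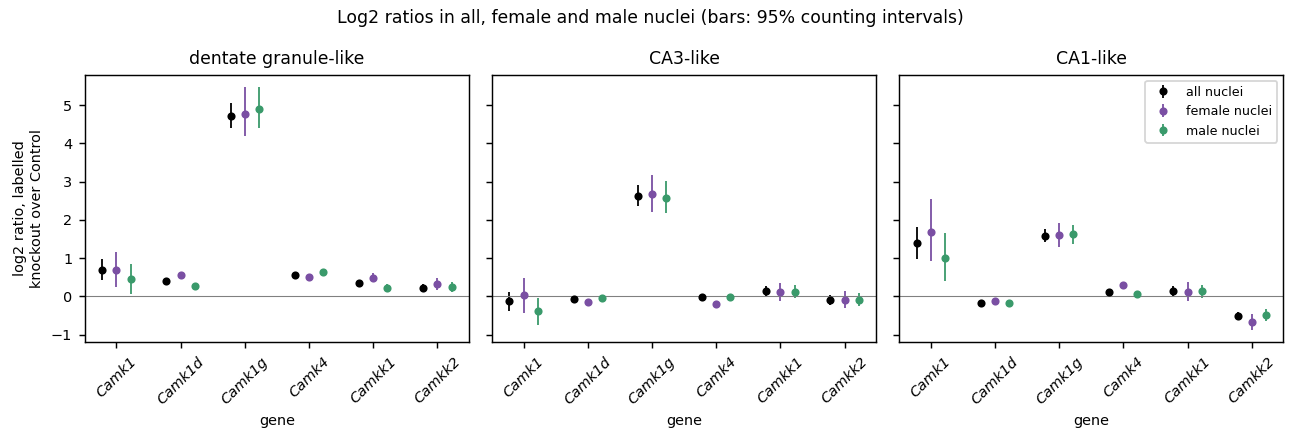
Log2 ratio of each gene in all nuclei (black), female nuclei (purple, 1 mouse per library) and male nuclei (green, 2 mice per library) of 3 classes, with 95% counting intervals as bars. The Camk1g points of both sexes lie at 4.77 and 4.90 in dentate granule-like, 2.67 and 2.58 in CA3-like and 1.60 and 1.62 in CA1-like nuclei, and those of Camkk2 lie under 0 in CA1-like nuclei.

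A member was counted by size where it reached 50 UMIs and 10 CPM in whichever library was higher, and the libraries were 2-fold or more apart. Camk1g met this in 5 classes, all higher in the labelled knockout. It was the 1 member to do so in dentate granule-like nuclei, where 3.27% of all genes with the minimum counts did, in CA3-like nuclei (1.61% of genes), CA1-like nuclei (4.17%), CA2-like nuclei (3.41%) and oligodendrocyte precursor-like nuclei (0.245%). Camk4 was the 1 member in Cajal-Retzius-like nuclei (2.81% of genes) and Camkk2 the 1 member in oligodendrocyte-like nuclei (3.69%). No member met it in inhibitory-like (0.102% of genes), immature dentate granule-like (0.357%), subicular or cortical excitatory-like (1.14%), astrocyte-like (0.233%), radial glia-like (0.931%), cycling progenitor-like (0.563%), committed oligodendrocyte precursor-like (1.27%) or microglia-like nuclei (1.45%). Since Camk1g was chosen with its values known, nothing is read from its count. Camk1, Camk1d and Camkk1 met it in no class. Of the 6 members, 5 had the minimum counts in dentate granule-like nuclei and in CA1-like nuclei, and 6 in CA3-like and in inhibitory-like nuclei. The member under the minimum in the granule-like class was Camk1, at 6.38 CPM in the higher library.

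The wider calmodulin pathway was described by 8 lists with 56 genes, all of them in the tables. In dentate granule-like nuclei, 45 had the minimum counts, 1 was higher by 2-fold and none was lower, where 188 of all 8428 genes were higher and 88 lower (3.27% in all). Their median log2 ratio was -0.05, against 0.02 over all 8428 genes. The 1 gene was Camk2d, the delta subunit of CaM kinase II, with 389 and 861 UMIs at 6.92 and 21.1 CPM (log2 ratio 1.61, with 1.62 in female and 1.61 in male nuclei). The main subunits of CaM kinase II in forebrain neurons moved little: Camk2a was at 1313 and 1174 CPM (-0.16) and Camk2b at 657 and 665 (0.02). Of the calmodulin genes, Calm2 gave -0.07 and Calm3 gave 0.30.

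In CA1-like nuclei, 2 of 45 list genes were higher by 2-fold and none lower, where 254 of all 8156 genes were higher and 86 lower (4.17% in all), with a list median of 0.01 against 0.09 over all genes. Camk2d had 442 and 1620 UMIs, at 13.5 and 73.1 CPM, a log2 ratio of 2.43 (2.28 to 2.59), with 2.41 in female and 2.29 in male nuclei. Pnck, which encodes a neuronal kinase of the CaM kinase I family, had 142 and 223 UMIs, at 4.34 and 10.1 CPM (1.21). Camk2a was at -0.16 and Camk2b at -0.15 in this class. In CA3-like nuclei, where 1.61% of all genes passed, 1 of 46 was higher, Limk1, a kinase of the actin regulator cofilin, with 345 and 680 UMIs at 11.7 and 27.9 CPM (1.26). Camk2d was at 25.5 and 28.7 there, a log2 ratio of 0.17, Camk2a at -0.11 and Camk2b at 0.14. The list median in CA3-like nuclei was 0.03, against 0.07 over all genes.

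Inhibitory-like nuclei had no list gene past 2-fold of 47 with the minimum counts (0.102% of all genes), with a median of -0.01 against 0.04 over all genes. Camk2d stood at 158 and 157 CPM there (-0.01), and so shared with Camk1g a higher Control level than in pyramidal classes and little difference between the libraries. In oligodendrocyte-like nuclei, where 3.69% of all genes passed, 1 of 43 was higher, Hdac4, a class II histone deacetylase whose nuclear export CaM kinases control, with 227 and 440 UMIs at 26.4 and 61.1 CPM (1.21). The list median there was -0.21 against -0.10 over all genes. Over the remaining 10 classes, list genes past 2-fold numbered 2 in CA2-like, 1 each in Cajal-Retzius-like, committed oligodendrocyte precursor-like, cycling progenitor-like and oligodendrocyte precursor-like, and none in the other 5. They were named after their values were seen: Limk1 (1.51) and Gap43 (1.05), which encodes a calmodulin-binding protein of growth cones, in CA2-like nuclei, and Gap43 again in committed oligodendrocyte precursor-like nuclei (2.14, from 30 and 116 UMIs). Hdac9, a class II histone deacetylase, was the gene in Cajal-Retzius-like nuclei (1.23), Crem, a transcription factor related to CREB, in cycling progenitor-like nuclei (1.01), and Limk1 in oligodendrocyte precursor-like nuclei (1.03). All of these were higher in the labelled knockout, and the shares of all genes past 2-fold in these classes are those given above. Of the 9 genes of the AMP-activated kinase and AKT list, 3 to 8 had the minimum counts in a class, and of the 6 phosphatase genes 3 to 6, and none of those was past 2-fold in any of the 15 classes.

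The counted genes next to each member were read in the order of GENCODE M21, which holds 94.9% of the gene identifiers in the tables, and 3 on either side were taken. Beside Camk1g stand Hsd11b1, which encodes a glucocorticoid-activating dehydrogenase, G0s2 and Gm37650 on one side and Mir205hg, 4930503O07Rik and Plxna2 on the other. Hsd11b1 had 114 and 1987 UMIs in dentate granule-like nuclei, at 2.03 and 48.8 CPM, a log2 ratio of 4.58 (4.32 to 4.87). CA3-like nuclei had 350 and 1281 UMIs, at 11.8 and 52.5 CPM (2.15), and in CA2-like nuclei 34 and 61 (1.37). In CA1-like nuclei its levels of 3.92 and 9.47 were under 10 CPM (1.27). Like Camk1g, it was also higher in oligodendrocyte precursor-like nuclei (2.85 and 10.4 CPM, 1.83). It also passed the size rule in immature dentate granule-like (1.65), astrocyte-like (1.04) and microglia-like nuclei (1.59). In the first of these Camk1g was under 2-fold (0.76), and in the others it was over 2-fold (2.56 and 1.49) but under the minimum counts. Microglia-like nuclei were taken above as the measure of free RNA, and the part of free RNA in the Hsd11b1 values of these classes was not tested.

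Of the other 5 neighbours, Plxna2 alone had the minimum counts in dentate granule-like nuclei. G0s2, which lies between the pair and encodes a lipase inhibitor, had 34 and 14 UMIs in the granule-like class and 22 and 31 in the CA3-like class, and both intervals of its ratio hold 0. Gm37650 had no UMI in the dentate granule-like, CA3-like or CA1-like nuclei of either library, which allows up to 3 UMIs per class and library, and nor did Mir205hg. The RNA 4930503O07Rik had 1 UMI in dentate granule-like nuclei of the labelled knockout. Plxna2, a semaphorin receptor known for its role at mossy fibers, had 10217 and 8985 UMIs in dentate granule-like nuclei, at 182 and 221 CPM (0.28). Its log2 ratio was 0.22 for the CA3-like and -0.33 for the CA1-like class. Hsd11b1 overlaps Lamb3 on the opposite strand, and Lamb3 had 52 and 272 UMIs in dentate granule-like nuclei.

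**Figure D5:**
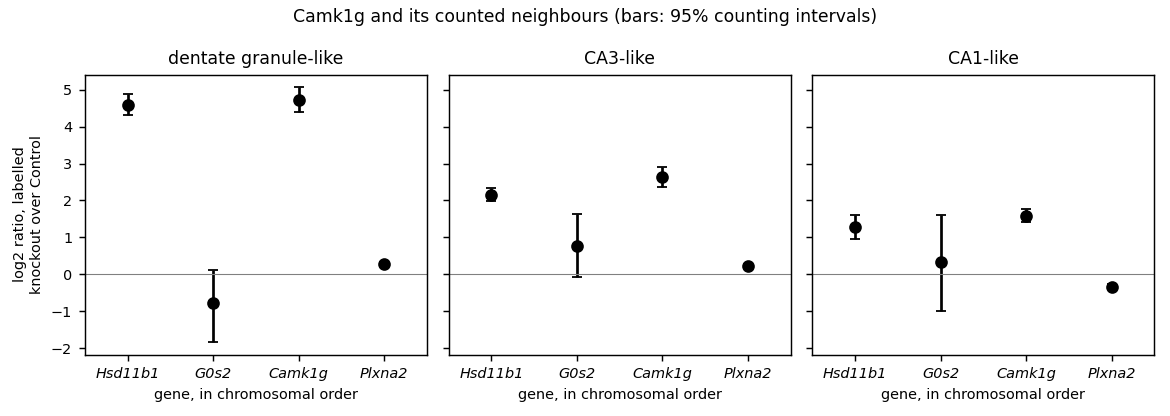
Log2 ratio of the labelled knockout over Control for Camk1g and its neighbours with UMIs in all 3 classes drawn, in chromosomal order, with 95% counting intervals as bars. In dentate granule-like nuclei Hsd11b1 lies at 4.58 and Camk1g at 4.71, with G0s2 between them at -0.79 and Plxna2 at 0.28.

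Among the neighbours of the other 5 members, 3 on either side of each, 1 gene passed the size rule. Of all genes with the minimum counts, 4.17% did in CA1-like, 1.61% in CA3-like and 1.14% in subicular or cortical excitatory-like nuclei. Nothing is read from the count of neighbours. The gene was Nrep, the second gene beyond Camk4, which encodes a small protein known from regenerating neurons. It had 109 and 503 UMIs in CA1-like nuclei, at 3.33 and 22.7 CPM (2.76), and 120 and 344 in CA3-like nuclei, at 4.05 and 14.1 (1.79). It also differed in subicular or cortical excitatory-like nuclei, at 35.6 and 75.9 CPM (1.09). Camk4 itself stood at 0.13, -0.02 and 0.21 in those classes.

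Genes with levels most like each member were taken by the Pearson correlation of log2(CPM + 1) over 30 sums, 15 classes in each of 2 libraries, among 13062 genes. These sums share libraries and depth, so the values are descriptions. For Camk1g they were Ptpn5 (0.77), Trpc4 (0.75) and Zscan18 (0.74), lower than for any other member. Camk4 was most like Rbfox1 (0.94), Gm26871 (0.93) and Grm5 (0.93), and Camk1d most like Pfkl (0.91), Nos1ap (0.91) and Trpm4 (0.88). Camk1 was most like Sec61g (0.88), Atp13a3 (0.87) and Lgals8 (0.84). Camkk1 was most like Phyhip (0.90), Trrap (0.87) and Sntb2 (0.87), and Camkk2 most like Neurl1a (0.88), 4933406I18Rik (0.86) and Sh3pxd2a (0.84).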

How the data were processed

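Nuclear RNA of 2 hippocampal libraries was counted by the authors with Cell Ranger 8.0.1 on mm39, per the submitters' processing notes, and the values they deposited are UMI counts of each gene in each nucleus, with no normalization. What follows was computed here. Barcodes with under 500 genes or over 5% mitochondrial UMIs were left out (847 in Control, 164 in the labelled knockout), as were doublets (12.9% and 10.9%), called by Scrublet in scanpy 1.11.5 with a rate of 0.1 assumed. Both libraries were clustered together without batch correction (Python 3.11.15, 3000 variable genes, 30 principal components, 15 neighbours, Leiden resolution 1 with leidenalg 0.10.2). A cluster was named after the best of 21 marker sets if 3 markers were raised and the mean log2 fold was at least 0.7. That minimum was set after the clusters were seen, and it kept out 5.82% of Control and 7.30% of labelled knockout nuclei. A cluster also stayed unnamed if another set had more genes among its 10 leading genes, as in the cluster led by Dcn and nearest to CA1. So did a cluster with a median depth under 1/3 of its library's and none of its own markers among those 10. In all, 11.4% and 13.1% stayed unnamed, and names rebuilt here may differ from those of the study.

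UMIs were summed per library and class, and 0.5 UMI was added to each sum for log2 ratios. Intervals are exact Poisson for levels, exact conditional binomial for ratios and Clopper-Pearson for shares, at 95%. The size rule needs 50 UMIs, 10 CPM and 2-fold. PCR copies are removed by the UMIs, and intervals cover counting error only. Nuclei with 2 or more Xist UMIs and none of 4 Y-linked genes were taken as female, and those with the reverse (1 or more of the Y-linked UMIs) as male. The script was tested on simulated data. Depth was 314453640 UMIs in Control and 252995761 in the labelled knockout.

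The members and lists were chosen with earlier results of these data known. Named genes were the members, Cic, list genes that met the size rule in the granule-like, CA3-like, CA1-like or oligodendrocyte-like class, with Calm2, Calm3, Camk2a, Camk2b and Camk2d, neighbours past the rule or next to Camk1g, and 3 genes by likeness per member. A further gene under this rule is not reported here. Ogg1, 2310026I22Rik and Lamb3 were added afterwards for their overlaps. Alternatives were doublets kept, female or male nuclei only, median-of-ratios and TMM scaling, thinning to 2000 UMIs, a minimum of 1000 genes, clustering without members and changed genes, resolution 2, 5 UMIs added, and other size rules. Values in clusters at resolution 2 and alternatives for oligodendrocyte precursor-like and inhibitory-like nuclei were added after the data were seen.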

Additional observations from a re-analysis of the deposited data

Results flagged for a closer look

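Camk1d had a log2 ratio of 0.62 in Cajal-Retzius-like nuclei and -0.43 in oligodendrocyte-like nuclei. It was flagged by a rule that takes opposite signs in different classes, with female and male nuclei sharing the sign within each class. Agreement of the sexes is thus a condition of the flag and not a result. The first class had 63 and 77 female and 69 and 98 male nuclei. The female and male values were 1.13 and 0.25 in Cajal-Retzius-like nuclei and -0.52 and -0.43 in oligodendrocyte-like nuclei. In Cajal-Retzius-like nuclei UMIs of Camk1d went from 99 to 188 while the share of nuclei with one went from 31.1% to 20.2%, and the 8 inhibitory markers (428 and 762 CPM) and 8 CA3 markers (323 and 505 CPM) were higher in sum, whose part in the value was not tested. The difference between the classes was not tested. With called doublets kept, where the oligodendrocyte-like class held partly different nuclei, the second value was -0.0045.

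Camkk2 had a log2 ratio of 1.21 in oligodendrocyte-like nuclei and -0.63 in CA2-like nuclei, again with female and male nuclei on the same side within each class (1.21 and 1.10, then -0.55 and -0.66). That difference was not tested either. With called doublets kept, and so partly different nuclei in the class, the oligodendrocyte-like value was 0.11.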

How the results depend on the processing

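The log2 ratio of Camk1g kept its direction and at least 2-fold under all 10 alternatives in dentate granule-like (4.64 to 5.08), CA3-like (2.24 to 2.67), CA1-like (1.47 to 1.80) and oligodendrocyte precursor-like nuclei (1.33 to 2.22). The value of 5.08 came from clustering without the members and the genes past the size rule, where the granule-like class held fewer nuclei. That of 1.80 came from resolution 2, where the clusters named CA1 took in more nuclei than the CA1-like class. With a minimum of 20 UMIs and none on CPM, the members past the size rule in CA1-like nuclei were 2, Camk1 and Camk1g. In no other setting did that count change in dentate granule-like, CA3-like, CA1-like or inhibitory-like nuclei. In oligodendrocyte-like nuclei, Camkk2 was under 2-fold with doublets kept (0.11), a setting that also changed which nuclei the class held. In oligodendrocyte precursor-like nuclei Camk1g was under the minimum of 50 UMIs in female nuclei. The full set of alternatives was run for members in dentate granule-like, CA3-like, CA1-like, oligodendrocyte-like, oligodendrocyte precursor-like and inhibitory-like nuclei only. Values in other classes, CA2-like and Cajal-Retzius-like nuclei among them, were not put through it. Of 350 values under alternatives for single members (those of Camk1g in dentate granule-like nuclei not counted), 297 stayed within the counting interval of the reported value and 50 moved out of it. A further 3, whose interval had left out 0, changed sign, and 8 of the others did so where that interval holds 0. The 3 were Camk1 (0.32) and Camkk1 (0.071) in oligodendrocyte-like nuclei with doublets kept and Camk1d in inhibitory-like nuclei (0.10) with female nuclei only, and the cause was not tested. Counts of all genes past the rule moved more: with 20 UMIs they were 952, 556, 1013 and 190 for the dentate granule-like, CA3-like, CA1-like and inhibitory-like classes, against 276, 132, 340 and 9, and at 1.5-fold 650, 435, 864 and 41. Female nuclei gave 246 for the CA3-like, 527 for the CA1-like and 49 for the inhibitory-like class, and thinned inhibitory-like nuclei gave 16. Median-of-ratios scaling shifted all ratios by -0.11 in CA1-like and -0.12 in CA2-like nuclei. No paired analysis was possible because each group is 1 library.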
